A study of Mus musculus with 8 samples.

Results

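Contractile smooth muscle and myofibroblast genes were examined in adipose-derived stem cells (ADSCs) grown in 2D or in 3D. The group was chosen by symbol and comprises 10 of the 24346 genes listed: the actins Acta2 and Actg2, the actin-binding genes Tagln, Cnn1, Cnn2 and Cald1, the tropomyosins Tpm1 and Tpm2, and the myosin subunits Myl9 and Myh11. All 10 were above 0 in at least 1 library and were among the 18862 genes tested. ADSCs of 6 WT mice of strain BALB/c, male and 12 weeks old, were isolated by collagenase digestion of gonadal fat and cultured. The paper passaged its 3D cultures repeatedly and does not give the passage of the sequenced cultures. The 2D group holds 4 libraries of conventional cultures (mice 2, 3, 4 and 5). The 3D group holds 4 libraries of cells embedded in Matrigel, a basement membrane extract, under 3D culture media (mice 1, 4, 5 and 7). The paper tried such media with and without conditioned medium holding Wnt3a and R-spondin1. It does not give the one used for the sequenced cultures. Matrix and medium changed together, and their parts in a difference cannot be told apart. The values are FPKM, fragments per kilobase of transcript scaled to the size of the library, so levels of different genes can be compared per length.

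Smooth muscle cells contract when myosin pulls on actin filaments. The myosin of smooth muscle is switched on by phosphorylation of its regulatory light chain, while calponin, caldesmon and tropomyosin line the actin filament and restrain or order its use. Fibroblasts and stromal cells that spread on a stiff surface can take up part of this apparatus as stress fibres, and α-smooth muscle actin, the product of Acta2, is the usual marker of such myofibroblasts. Serum response factor (SRF) binds the CArG box in many of these genes and works with myocardin and the myocardin-related factors, whose nuclear entry depends on the state of actin. Fat holds stromal cells and the mural cells of its vessels, both of which can express these genes.

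Estimated depth differed little, at 16400000 to 17380000 fragments per library in 2D and 14500000 to 15640000 in 3D. The labelled cell type, mesenchymal stem cells, was compared with its markers. The stromal genes Thy1, Pdgfrb and Col1a1 were at 70.3 to 350.2, 14.4 to 51.9 and 295 to 824 FPKM in 2D. In 3D, Pdgfrb and Dcn were listed at 0 in every library, Thy1 reached at most 0.0862 FPKM and Col1a1 at most 0.123 FPKM, while the epithelial gene Epcam was at 212 to 416 FPKM. Not all markers of the list fell as clearly. Cd44 was at 92.7 to 180.3 FPKM in 2D and 52.9 to 89.7 FPKM in 3D, with groups that did not overlap. Its adjusted p in limma was 0.362, and 0.0314 with values as deposited (difference -0.84). Ly6a (Sca-1) went the other way, at 26.0 to 189 FPKM in 2D and 50.3 to 2607 FPKM in 3D, with overlapping groups (difference 3.86). Its adjusted p in limma was 0.0432, and 0.0570 with values as deposited. Of the 9 stromal markers 6 were lower in 3D and 1 was higher, and the list summed to 757 to 1484 FPKM in 2D and 127 to 2660 FPKM in 3D. In each 3D library only 2 of the 9, Cd44 and Ly6a, reached 1 FPKM. Ly6a made up most of the sum for mice 4, 5 and 7 (1627, 1735 and 2607 FPKM). In bulk RNA, fewer cells of a type and less RNA per cell cannot be told apart. The part of this difference in cell markers in the results on the contractile genes was not tested. Mesothelial markers (Msln, Upk3b, Wt1, Lrrn4) summed to 528 and 1506 FPKM in mice 3 and 4 under 2D culture. Their sum was 0.339 and 0.222 FPKM in mice 2 and 5 under 2D culture and 2.26 to 30.4 FPKM in 3D. Basal epithelial markers (Krt5, Krt14, Trp63, with Oxtr) summed to 432 FPKM for mouse 1 in 3D and to 0.629 to 11.7 FPKM in the other 3D libraries.

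Because the genes moved together, the stretches before their start sites were searched for the CArG box, the site of SRF, on the promoters listed by RefSeq for GRCm38.p6. Of the 10 genes, 7 had an entry, with 8 windows in all, and Tagln, Actg2 and Myh11 had none. In the 250 bases before the start, a CArG box was found in 2 of the 8 windows, those of Cnn2 and Myl9, and in 1.47% of the 32851 windows of all genes. When 1 G or C was allowed in its core, 3 of the 8 windows held it, with Acta2 added, and 8.59% of all windows did. The motif GGAATG, the site of TEAD factors, was present on either strand in 3 of the 8 windows (Acta2, Tpm1 and Cald1) and in 12.6% of all. The forms of the box overlap, since the relaxed form includes the strict one. Srf itself is shown beside them because its own promoter holds 2 strict boxes. The lines below run from 200 to 21 bases before the start, with the strict and relaxed matches of the CArG box in capitals, on chr19:34255394-34255573 (minus strand) for Acta2, chr10:79988400-79988579 (plus) for Cnn2, chr2:156775264-156775443 (plus) for Myl9 and chr17:46556183-46556362 (minus) for Srf.
Acta2: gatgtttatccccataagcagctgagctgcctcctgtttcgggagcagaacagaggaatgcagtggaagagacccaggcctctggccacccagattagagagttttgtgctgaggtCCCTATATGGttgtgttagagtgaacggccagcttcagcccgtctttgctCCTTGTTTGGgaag
Cnn2: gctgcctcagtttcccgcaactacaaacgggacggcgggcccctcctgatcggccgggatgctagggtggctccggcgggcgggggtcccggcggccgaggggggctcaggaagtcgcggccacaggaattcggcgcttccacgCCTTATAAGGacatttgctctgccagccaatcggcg
Myl9: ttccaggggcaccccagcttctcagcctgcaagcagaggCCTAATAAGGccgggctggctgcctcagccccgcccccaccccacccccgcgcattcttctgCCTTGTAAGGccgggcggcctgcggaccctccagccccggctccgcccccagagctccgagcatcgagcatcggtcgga
Srf: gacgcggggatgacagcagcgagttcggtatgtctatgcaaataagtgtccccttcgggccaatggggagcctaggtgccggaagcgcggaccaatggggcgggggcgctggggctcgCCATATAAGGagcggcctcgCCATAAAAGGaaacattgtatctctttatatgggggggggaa
Both matches of Acta2, beginning 84 and 34 bases before the start, carry 1 G or C in the core and so count in the relaxed form alone. In Cnn2 the strict box began 56 bases before the start. Myl9 held a strict box at 161 and a relaxed one at 99 bases. The boxes were not confined to the 10 genes. Of their relatives, Actg1 and Myl6 also held a strict box, beginning 90 and 50 bases before the start. Myl12a held a relaxed box, and Tagln2 held GGAATG. A match describes letters in a window and does not show that a factor binds there.

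All 10 genes fell from 2D to 3D, and for each of them every 2D library was above every 3D library. Among all genes tested, 20.3% were lower in 3D at an adjusted p below 0.05 and 21.8% had all 2D libraries above all 3D libraries. The median difference of the 10 genes was -7.06 on the log2 scale, against 0.00 for all genes tested. Tagln and Acta2 had the third and the fifth largest fall among all genes tested. In the plot of values by library, Acta2, Tagln and Cnn1 went from high levels to about 1 FPKM or less and Actg2 and Myl9 to 0 or nearly so, while Tpm1, Cnn2 and Cald1 stayed above 15 FPKM. Myh11 was low in both cultures.

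**Figure D1:**
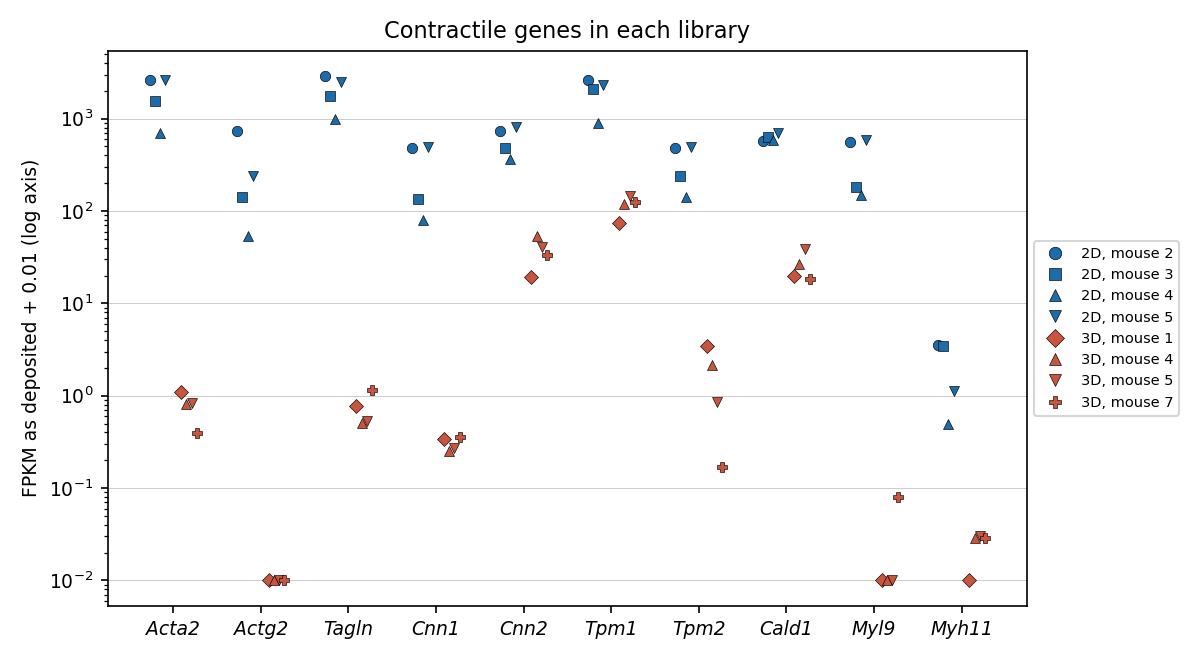
FPKM as deposited (log axis, with 0.01 added so that values of 0 can be drawn) of each of the 10 genes in the 4 libraries of 2D cultures (blue) and the 4 of 3D cultures (red), with the mouse given by the symbol. The groups do not overlap for any gene, Actg2 lies at 0 in all 4 3D libraries, and Tpm1 keeps 73.5 to 146 FPKM in 3D.

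Acta2, which encodes α-smooth muscle actin (chr19:34241090-34255590, minus strand), stood at 2593, 1539, 698 and 2619 FPKM in 2D (mice 2, 3, 4 and 5, the order used for each gene). In 3D (mice 1, 4, 5 and 7, in this order throughout) it was at 1.08, 0.809, 0.832 and 0.387 FPKM. It ranked between 29 and 136 among all genes of a 2D library by level. All 3D values were close to 1 FPKM or below, and the lowest 2D library was still 647-fold above the highest 3D library. Mean levels were 1862 ± 925 FPKM in 2D and 0.777 ± 0.287 FPKM in 3D (SD, n = 4 each), a 2398-fold fall. In limma the difference was -9.82 (SE 0.41) on the log2(FPKM + 1) scale after quantile normalization, with an adjusted p of 2.1e-06. At the estimated depth the 3D values correspond to 12.3 to 31.8 fragments, so Acta2 was low and not absent there.

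Actg2, the γ-actin of enteric smooth muscle (chr6:83512905-83536265, minus strand), was at 743, 142, 54.1 and 239 FPKM in the 2D libraries. It was listed at 0 in all 4 3D libraries. Its level in 2D differed 13.7-fold between mice 2 and 4, the widest spread of the 10 genes. The fitted difference was -7.36 (SE 0.65, adjusted p 1.0e-04 in limma), and no fold is given against a group at 0.

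Tagln encodes transgelin (SM22α), an actin-binding protein and an early marker of smooth muscle (chr9:45929619-45936058, minus strand). It reached 2901, 1774, 1004 and 2515 FPKM in 2D and 0.765, 0.497, 0.527 and 1.16 FPKM in 3D. It ranked between 29 and 88 in the 2D libraries, and the groups lay 869-fold apart at their nearest values. Its mean fell 2782-fold, from 2048 ± 839 to 0.736 ± 0.304 FPKM, with a fitted difference of -10.06 (SE 0.29, adjusted p 4.6e-07 in limma). Exons of Tagln overlap those of Pcsk7 and Gm48529 on the opposite strand, and the sources used here do not say whether strand was used in the quantification.

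The calponins differed between themselves. Cnn1, the smooth muscle calponin that restrains the myosin motor (chr9:22099216-22109630, plus strand), was at 486, 136, 80.0 and 498 FPKM in 2D and at 0.332, 0.244, 0.259 and 0.343 FPKM in 3D. The 2D values formed a high pair (mice 2 and 5) and a low pair (mice 3 and 4), while the 3D values lay close together. Its mean fell 1019-fold, from 300.1 ± 223 to 0.295 ± 0.0504 FPKM (fitted difference -7.26, SE 0.55, adjusted p 4.6e-05 in limma). Cnn2, a calponin found in many cell types beside smooth muscle (chr10:79988584-79996062, plus strand), was at 734, 481, 365 and 810 FPKM in 2D. It kept 19.3, 53.7, 40.9 and 33.2 FPKM in 3D, with mouse 1 lowest. The groups did not overlap, but the fall in the mean was 16.2-fold (fitted difference -3.63, SE 0.37, adjusted p 1.9e-04 in limma).

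Tropomyosins wind along the actin filament and set which proteins can reach it. Tpm1 (chr9:67022590-67049406, minus strand) was at 2648, 2114, 895 and 2296 FPKM in 2D and at 73.5, 119, 146 and 125 FPKM in 3D. It was the highest of the 10 genes in every 3D library, where it ranked between 375 and 825 among all genes. Its mean fell 17.2-fold, and the fitted difference was -3.55 (SE 0.35, adjusted p 1.7e-04 in limma). Tpm2, the tropomyosin more typical of smooth muscle (chr4:43514711-43523765, minus strand), was at 481, 239, 141 and 494 FPKM in 2D and at 3.46, 2.14, 0.847 and 0.161 FPKM in 3D. The 3D values of Tpm2 ranged over 21.6-fold, against 2.79-fold for Acta2 in the same libraries. Mouse 7 was lowest, at about 5.46 estimated fragments, so the width of this range is uncertain. The mean of Tpm2 fell 205-fold (fitted difference -6.87, SE 0.48, adjusted p 3.2e-05 in limma). Isoforms of these genes were not separated in the values, so the smooth muscle and the general forms of Tpm1 are counted together.

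Cald1, caldesmon, which links actin, myosin and tropomyosin and has a smooth muscle form and a general form (chr6:34598500-34775473, plus strand), varied least between the 2D libraries. It was at 571, 629, 595 and 698 FPKM in 2D and at 19.6, 26.9, 39.1 and 18.5 FPKM in 3D. These differed by at most 1.22-fold in 2D, the narrowest spread of the 10 genes there, and 2.12-fold in 3D. The mean fell 24.0-fold, from 623 ± 55.3 to 26.0 ± 9.48 FPKM (fitted difference -4.25, SE 0.26, adjusted p 1.7e-05 in limma).

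Myl9, the regulatory light chain of smooth muscle and non-muscle myosin II (chr2:156775420-156781658, plus strand), was at 557, 181, 149.7 and 581 FPKM in 2D. In 3D it was listed at 0 for mice 1, 4 and 5 and at 0.0704 FPKM for mouse 7, or about 1.24 fragments. The 2D values again fell into the pair of mice 2 and 5 and the lower pair of mice 3 and 4. The fitted difference was -7.97 (SE 0.40, adjusted p 6.0e-06 in limma), and no fold of the means is given at so few fragments.

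Myh11, the heavy chain specific to smooth muscle myosin (chr16:14194535-14291372, minus strand), did not share the high levels of the other genes. It was at 3.54, 3.44, 0.485 and 1.12 FPKM in 2D and at 0, 0.0191, 0.0204 and 0.0190 FPKM in 3D, where it never exceeded 1.95 estimated fragments. Its 2D mean of 2.15 ± 1.57 FPKM compares with 1862 ± 925 FPKM for Acta2 and 2048 ± 839 FPKM for Tagln, also per length. The fitted difference was -1.61 (SE 0.38, adjusted p 0.0113 in limma). The groups did not overlap, but in the libraries of mice 4 and 5 alone the difference was -0.93 with an adjusted p of 0.124.

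**Figure D2:**
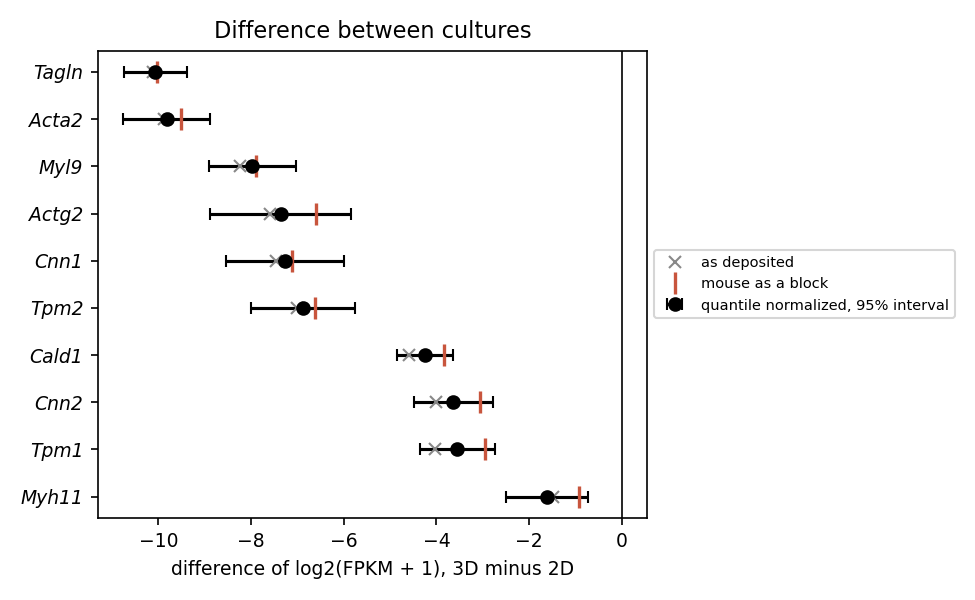
Difference of log2(FPKM + 1), 3D minus 2D, for the 10 genes, with quantile normalized values and 95% intervals from limma (black points), values as deposited (grey crosses) and the fit with mouse as a block (red bars). The differences run from -10.06 for Tagln to -1.61 for Myh11, and none of the intervals of the fit without the block reaches 0.

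Mice 4 and 5 gave libraries in both cultures, which allows a comparison within an animal. With mouse as a block, the difference comes from these mice alone, since each other mouse has 1 library. The differences of the 10 genes stayed negative in this fit, between -10.03 (Tagln) and -0.93 (Myh11). None passed at an adjusted p below 0.05 in limma, with adjusted p from 0.111 to 0.223, and 0 of all genes tested passed in that fit, which has 1 residual degree of freedom. At an unadjusted p below 0.05 the same fit held 9 of the 10 genes as lower, all but Myh11 (p 0.0781), against 12.6% of all genes. In the 4 libraries of these mice without a block, 9 of the 10 genes had an adjusted p below 0.05 in limma, against 7.92% of all genes. Leaving out any 1 library kept all 10 genes past the threshold. The same held without the 2D libraries of mice 3 and 4, where 22.8% of all genes were lower, and without these and the 3D library of mouse 1, where 23.6% were.

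Many of the genes have close relatives that non-muscle cells use, and the share of a family taken by the contractile member, computed within a library from FPKM as deposited, is not changed by a constant factor per library. Acta2 and Actg2 made up 17.7 ± 5.21% of the FPKM of the 6 actins in 2D and 0.0612 ± 0.0171% in 3D (mean ± SD, n = 4 each). The cytoplasmic actins took nearly all of the rest, with Acta1 at 0.0282% to 0.824% in 2D. Actb held nearly the same share in both cultures, 55.3% to 58.7% in 2D and 55.5% to 58.5% in 3D, while Actg1 went from 24.7 ± 5.04% to 43.0 ± 1.71%. The total of the family fell from 11433 ± 3744 to 1240 ± 159 FPKM, and Actb (difference -3.38, adjusted p 6.3e-04 in limma) and Actg1 (difference -2.02, adjusted p 1.4e-04) were themselves lower in 3D.

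In percentage points, the shift in share was widest among the transgelins. Tagln made up 84.5 ± 2.08% of the family in 2D and 0.420 ± 0.234% in 3D, where Tagln2, a more widely expressed form, held 99.5 ± 0.331%. The level of Tagln2 itself was 194 to 588 FPKM in 2D and 155 to 250.5 FPKM in 3D, with overlapping groups (difference -0.35, SE 0.33, adjusted p 0.429 in limma). Cnn1 went from 23.0 ± 10.8% to 0.347 ± 0.128% of the calponins, with Cnn2 counted among the other calponins since many cell types use it. The share of Cnn3 went from 24.2 ± 8.60% to 59.5 ± 10.8%, while its level fell from 223 to 290.3 FPKM in 2D to 37.2 to 68.8 FPKM in 3D (difference -1.75, adjusted p 4.7e-04 in limma).

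Of the 3 regulatory light chains counted, Myl9 held 40.7 ± 16.7% in 2D and 0.00391 ± 0.00782% in 3D. Myl12b rose from 115 ± 45.0 to 364 ± 36.0 FPKM (difference 2.28, SE 0.31, adjusted p 8.3e-04 in limma) and held 82.2 ± 3.12% of the light chains in 3D. Of the tropomyosins, Tpm1 and Tpm2 together held 72.9 ± 10.1% in 2D and 39.6 ± 4.55% in 3D. Among the myosin heavy chains Myh11 was a minor member in both, at 0.260 ± 0.183% and 0.00478 ± 0.00323%. Non-muscle Myh9 held 91.3% and 90.4%. In none of the 6 families did the share of the contractile member overlap between the cultures. Exons of some relatives share stretches of 50 bases with other genes (37.4% of such stretches in Actg1, 23.2% in Tpm3, 19.1% in Myl12b and 16.4% in Myl12a), so the split between these relatives is uncertain. For the 10 genes the share was 0 or at most 0.340% (Myh11).

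**Figure D3:**
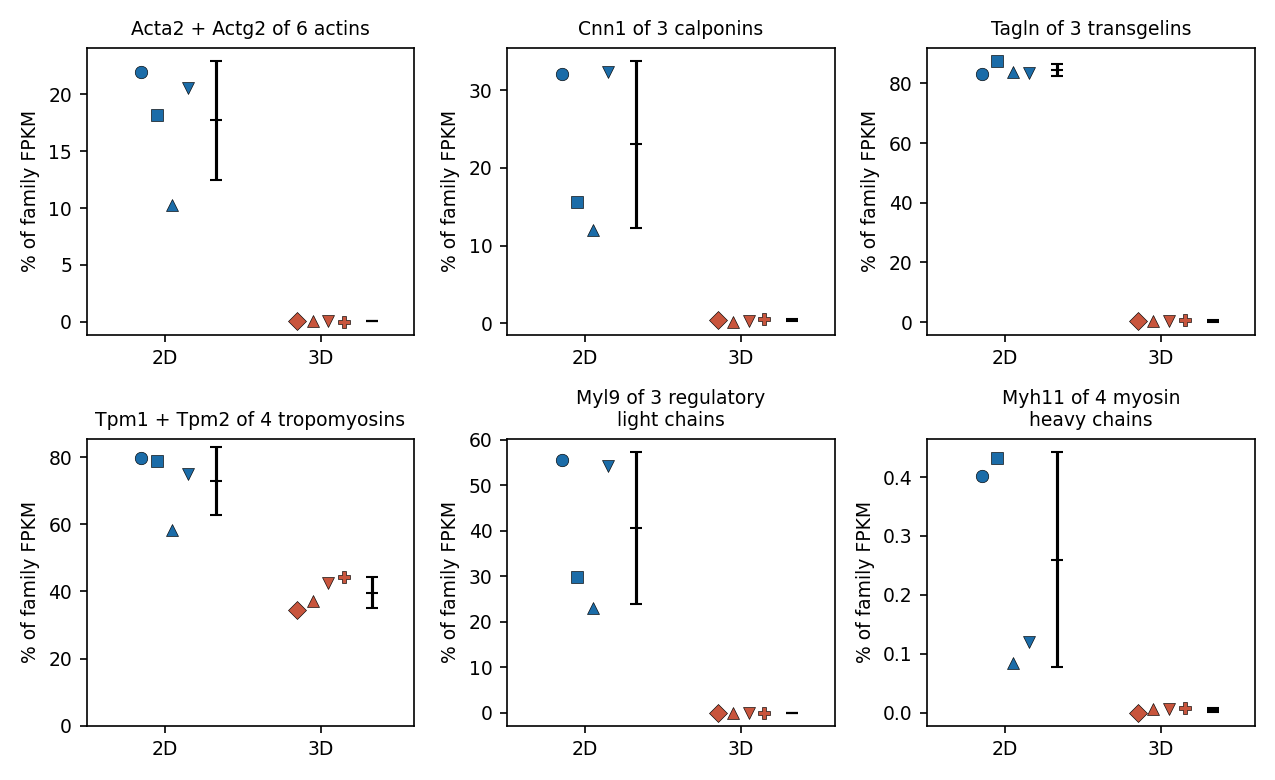
Share of the family's FPKM (%, linear axes) held by the contractile member in each library of 2D (blue) and 3D (red) cultures for 6 gene families, with the mouse given by the symbol as in the plot of values by library and the mean ± SD in black. The transgelin share goes from 84.5% to 0.420% and the tropomyosin share from 72.9% to 39.6%, with no overlap in any family.

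The 2D libraries were not alike. Mice 2 and 5 lay above mice 3 and 4 in 8 of the 10 genes, all but Cald1 and Myh11, and mouse 4 was lowest in 9 of 10, all but Cald1. The highest 2D library exceeded the lowest 13.7-fold for Actg2, 7.29-fold for Myh11, 6.23-fold for Cnn1, 3.88-fold for Myl9, 3.75-fold for Acta2 and 3.49-fold for Tpm2. The spread was 2.96-fold for Tpm1, 2.89-fold for Tagln, 2.22-fold for Cnn2 and 1.22-fold for Cald1. The same mice 3 and 4 held the mesothelial markers given above, and of the epithelial markers they held Krt8 (27.8 and 296 FPKM) and Krt18 (129 and 287 FPKM). All 4 mesothelial markers were above 10 FPKM in both of these libraries and below 1 FPKM in those of mice 2 and 5. Their part in the spread of the contractile genes was not tested. In 3D mouse 4 was lowest for Tagln and Cnn1 but not for Acta2, Cnn2, Tpm1 or Tpm2.

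**Figure D4:**
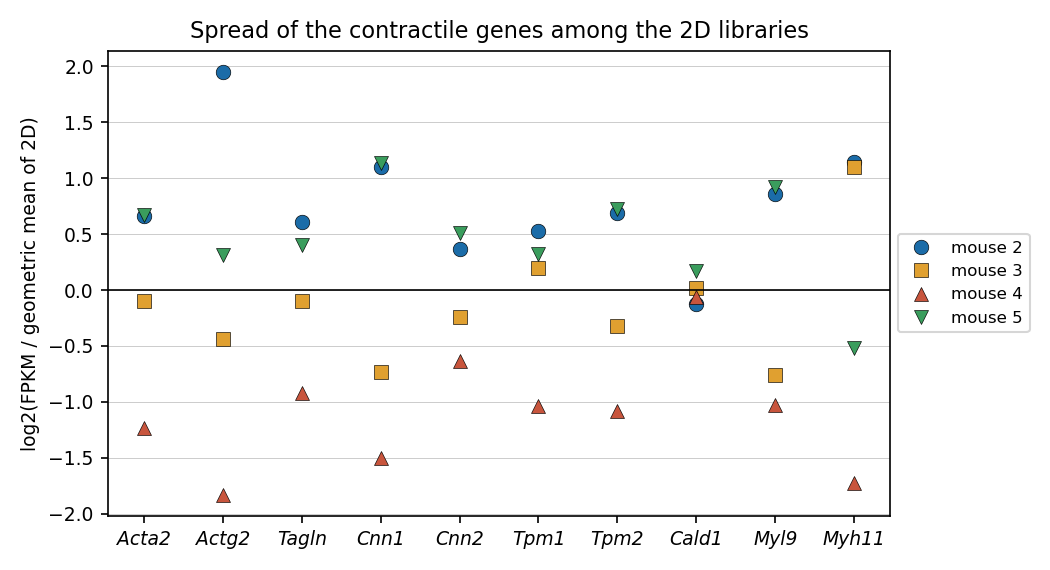
Log2 ratio of each 2D library's FPKM to the geometric mean of the 4 2D libraries, for the 10 genes, with 1 colour and symbol per mouse. Mice 2 and 5 lie above mice 3 and 4 in 8 of 10 genes, and the 4 points of Cald1 lie within 1.22-fold of each other.

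Mural cells of vessels also express Acta2, Tagln and Myh11, and their markers were read in the same libraries. Of 6 mural markers, Rgs5, Abcc9 and Kcnj8 were below 1 FPKM in all 8 libraries, and the sum of the list was 13.5 to 88.2 FPKM in 2D and 14.5 to 22.5 FPKM in 3D. Mcam and Cspg4 made up most of the sum in 2D and Notch3 in 3D. Of the 5 skeletal muscle markers Myod1 was listed at 0 in all libraries, and Myog and Ckm reached at most 0.0491 and 0.0547 FPKM. Tnnt3 was at 0.146 to 1.05 FPKM in 2D and at most 0.0849 FPKM in 3D (adjusted p 0.0689), and Actn3 was at 0.575 to 4.87 FPKM in 2D and at most 0.0245 FPKM in 3D (adjusted p 0.0090 in limma). Acta1, the actin of skeletal muscle, was at 126, 5.13, 2.07 and 9.37 FPKM in 2D and listed at 0 in 3D. The sum of the mural markers followed the order of the contractile genes in 2D. It was 88.2 and 58.2 FPKM in mice 2 and 5 and 20.0 and 13.5 FPKM in mice 3 and 4. Mcam was at 79.6 and 35.1 FPKM in mice 2 and 5 against 16.2 and 8.72 FPKM in mice 3 and 4. Cspg4 was at 7.57 and 22.0 FPKM against 0.352 and 0.741 FPKM. The order was reversed for Notch3, at 0.667 and 0.927 FPKM in mice 2 and 5 against 2.96 and 2.89 FPKM in mice 3 and 4. It was also reversed for Rgs5, at 0.323 and 0.145 FPKM against 0.456 and 0.958 FPKM. Kcnj8 was at 0 FPKM in mice 2 and 5 against 0.0283 and 0.0828 FPKM, and Abcc9 followed neither order. The part of mural cells in the levels of the contractile genes was not tested.

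Of 58 further genes of the contractile programme, in 6 lists, 57 were tested, and Actc1 was listed at 0 throughout. At an adjusted p below 0.05 in limma 38 were lower in 3D and 6 were higher, against 20.3% and 21.2% of all genes, and their median difference was -1.22. With mouse as a block 0 of the 57 passed in limma after adjustment, and 28 were lower at an unadjusted p below 0.05, against 12.6% of all genes. In the libraries of mice 4 and 5 alone 17 were lower and 3 higher, against 7.92% and 9.89% of all genes.

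SRF and its cofactors were lower in 7 of 8 cases (median -1.91). The count was 5 to 7 with each library left out in turn and 2 in mice 4 and 5 alone. Srf was at 44.6, 21.0, 16.2 and 46.2 FPKM in 2D and at 10.2 to 12.9 FPKM in 3D (difference -1.22, SE 0.30, adjusted p 0.0126 in limma). Its 2D order repeats the pair of mice 2 and 5 above mice 3 and 4. Myocd, encoding myocardin, the cofactor most specific to smooth and heart muscle, stayed below 1 FPKM in 2D and was listed at 0 in all 3D libraries (difference -0.68, adjusted p 0.0305). The myocardin-related factors went in opposite directions: Mkl1 (Mrtfa) was slightly lower (difference -0.48, adjusted p 0.0200) and Mkl2 (Mrtfb) rose from 8.97 to 11.9 FPKM in 2D to 18.4 to 26.4 FPKM in 3D (difference 0.98, adjusted p 1.2e-03). Among the LIM proteins that act with SRF, Csrp2 had the largest difference, -5.72, with 38.1 to 372 FPKM in 2D and 0.692 to 2.57 FPKM in 3D. Tgfb1i1, also called Hic-5, fell from 24.4 ± 9.37 to 0.0841 ± 0.0403 FPKM (difference -4.40, adjusted p 1.0e-05).

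**Figure D5:**
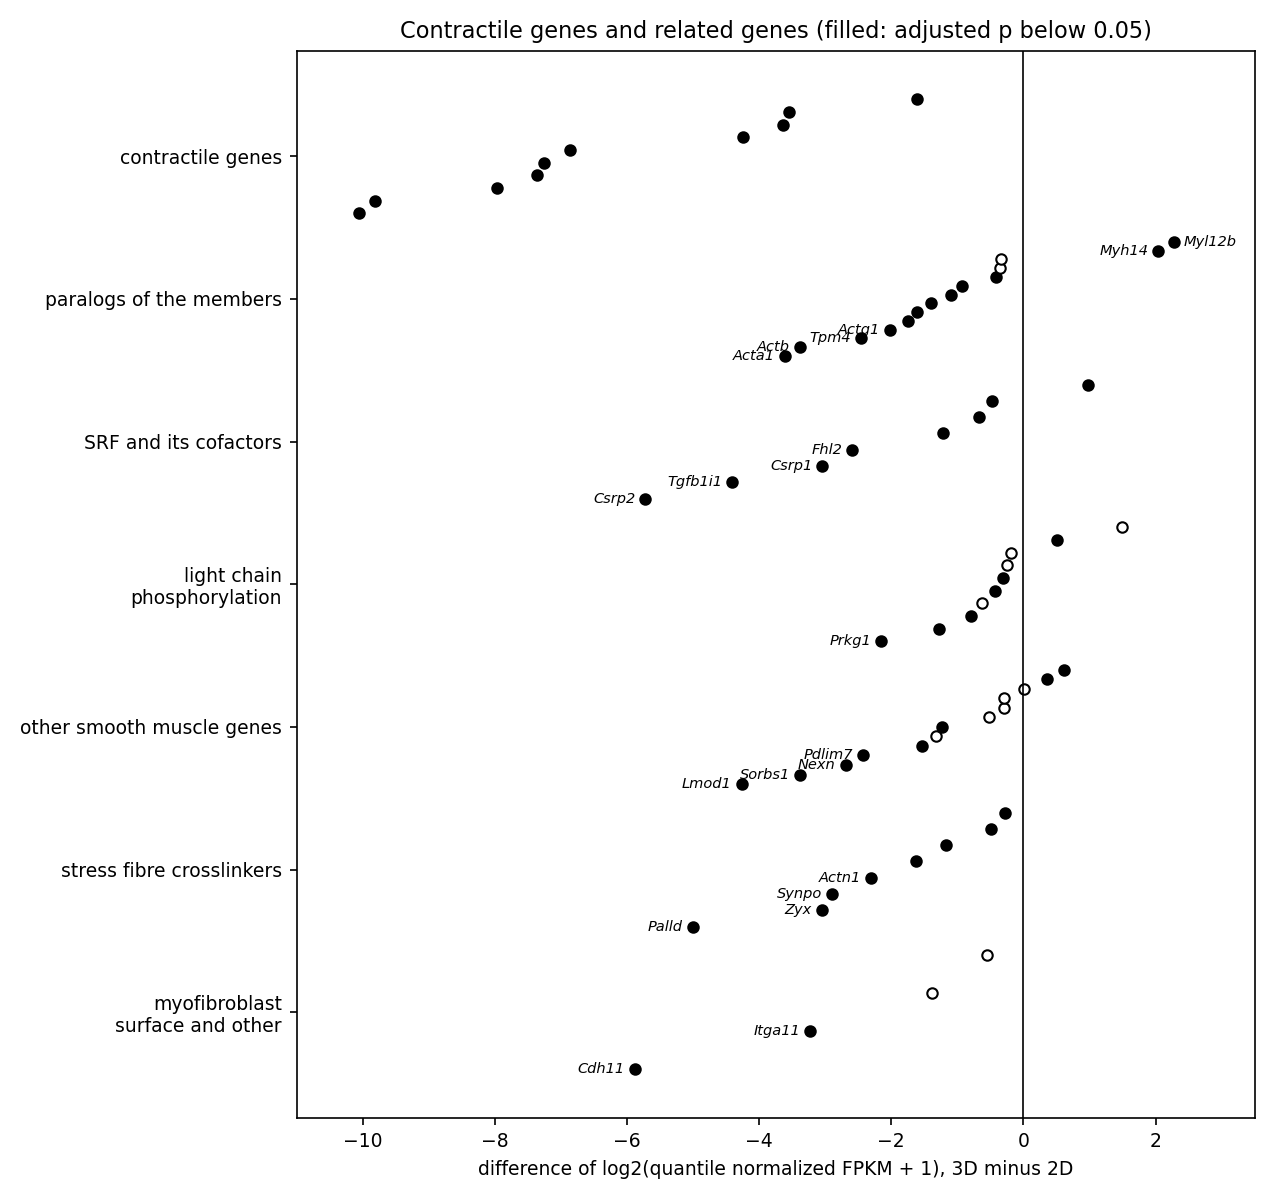
Difference of log2(quantile normalized FPKM + 1), 3D minus 2D, for the 10 contractile genes and for 57 related genes in 6 lists, 1 point per gene, filled where the adjusted p in limma is below 0.05. The 10 genes lie between -10.06 and -1.61, 38 related genes are filled to the left of 0 and 6 to the right, and Myl12b, at 2.28, lies farthest to the right.

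The enzymes that set light chain phosphorylation moved less, with a median of -0.37. Of 10 genes 5 were lower and 1 was higher. The 5 lower genes were Prkg1 (difference -2.16), Ppp1r14a (-1.28), Rhoa (-0.79), Ppp1r12a (-0.43) and Rock1 (-0.31). The count of lower genes was 3 when mouse 5 in 2D or mouse 1, 5 or 7 in 3D was left out, 6 with values as deposited and 0 in mice 4 and 5 alone, and the count of higher genes was 2 without mouse 2 in 2D or mouse 4 in 3D. Mylk, the myosin light chain kinase, had overlapping groups at 1.12 to 11.6 FPKM in 2D and 7.91 to 21.1 FPKM in 3D (difference 1.49, SE 0.52, adjusted p 0.0535 in limma, and 0.0459 with values as deposited). Ppp1cb, the catalytic subunit of myosin phosphatase, was the 1 gene called higher, but its deposited values overlapped, at 61.2 to 72.7 and 66.0 to 71.9 FPKM, and the call was lost with values as deposited (adjusted p 0.592).

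Genes that crosslink and anchor stress fibres were lower in 8 of 8 cases (median -1.97). The count was 7 to 8 with each library left out in turn and 5 in mice 4 and 5 alone. Palld (palladin) fell from 99.8 ± 19.0 to 2.32 ± 2.18 FPKM (adjusted p 7.9e-05 in limma) and Zyx (zyxin) from 221 ± 11.5 to 20.9 ± 5.05 FPKM (difference -3.05, adjusted p 2.8e-05). Actn4, an α-actinin of many cell types, had the smallest fall, from 243 ± 41.5 to 129 ± 4.99 FPKM (difference -0.28, adjusted p 0.0452). Of 13 other smooth muscle genes 6 were lower and 2 higher. With each library left out in turn 4 to 6 were lower, and 1 was higher without mouse 3 or 5 in 2D or mouse 1 or 4 in 3D. None was higher when a minimum mean of 1 FPKM was required or without mice 3 and 4 in 2D, and in mice 4 and 5 alone 2 were lower and 0 higher. Lmod1, which nucleates actin filaments in smooth muscle, had the largest fall (7.10 to 41.4 FPKM in 2D, 0 to 0.230 FPKM in 3D, difference -4.27, adjusted p 2.3e-04). Desmin (Des), the intermediate filament of muscle, was at 0.121 to 6.30 FPKM in 2D and listed at 0 in 3D, with adjusted p 0.0378 and, with upper-quartile scaling, 0.0515. Smtn (smoothelin) had overlapping groups (22.1 to 52.8 and 14.8 to 34.5 FPKM, adjusted p 0.511), and the 2 called higher, Synm and Itga8, stayed below 2.5 FPKM in all libraries.

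Among 4 further myofibroblast genes, Cdh11, a cadherin of mesenchymal cells, fell from 57.8 to 144 FPKM in 2D to 0.341 to 0.425 FPKM in 3D (difference -5.88, adjusted p 1.2e-06 in limma). Itga11, a collagen receptor subunit, fell from 10.3 ± 5.91 to 0.0967 ± 0.0228 FPKM (difference -3.23, adjusted p 3.9e-04). Fap and Nox4 did not pass (adjusted p 0.188 and 0.157), and their groups overlapped. Of the 15 relatives of the contractile genes 14 were tested, 10 were lower and 2, Myl12b and Myh14, were higher.

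The 5 genes outside the group with the profile most like that of Acta2 over the 8 libraries, by root mean square difference of centred log2 values, were Col1a2 (0.30), Bgn (0.44), Serpinh1 (0.47), Col1a1 (0.55) and Lox (0.59). Col1a1 and Col1a2 encode the chains of type I collagen, Bgn the matrix proteoglycan biglycan, Serpinh1 a collagen chaperone and Lox an enzyme that crosslinks collagen. Col1a2 was at 1467 ± 741 FPKM in 2D and at most 0.0264 FPKM in 3D. Of the contractile genes Tagln was nearest to Acta2, at 0.35.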

How the data were processed

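Total RNA of 8 ADSC cultures was sequenced, 4 in 2D and 4 in 3D, 1 library per mouse and culture. The authors depleted ribosomal RNA, made directional paired-end libraries, checked them with FastQC, trimmed with FASTX_Trimmer and BBMap, mapped with TopHat (mm10, per the submitters' processing notes) and deposited FPKM values per gene from Cufflinks, without counts. The annotation is not given in the sources used here. The methods name a quantile normalization that the deposited FPKM values do not include.

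Genes at 0 in every library (5484) were left out and 18862 were tested. Values were quantile normalized and fitted as log2(FPKM + 1) with limma 3.58.1 in R 4.3.3 (empirical Bayes, intensity trend, no covariates), with Benjamini-Hochberg adjustment over all genes tested. Levels, folds and family shares are from FPKM as deposited, and fitted differences, which understate changes of low genes, are 3D minus 2D. Depth was estimated from whole-read steps in FPKM of 875 single-transcript genes, and fragments from it at the longest transcript of GENCODE M21, which also gave the gene coordinates (GRCm38). Only 56.6% to 72.3% of the low values lay within 0.1 of a whole read, so counts were not recovered and these depths are approximate. On data simulated for both groups from the means and spreads of the 2D libraries, the fit called 177 of 200 changed genes (88.5%) and 14 unchanged genes. Far fewer genes were changed there than were called in the data, so the simulation does not test the normalization under so wide a change.

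Mice 4 and 5 are in both cultures and pair the libraries as the same animals. After subtracting group means, the paired libraries of these mice correlated at -0.05 and -0.11 over 12577 genes. Alternatives were other scalings, no trend, a minimum mean of 1 FPKM, a pseudocount of 0.1, mouse as a block or random effect, mice 4 and 5 alone, and each library left out. Leaving out the 2D libraries of mice 3 and 4, and with them the 3D library of mouse 1, was chosen after seeing the data. All 10 genes are named, as may be any gene of the 6 lists of related genes, the 5 genes nearest to Acta2, and markers beside a result. These genes, lists and markers were chosen with earlier results of these data known. Each group has 1 library per mouse, so p-values measure the spread between mice.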

Additional observations from a re-analysis of the deposited data

Results flagged for a closer look

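In each culture, the 4 libraries were searched for a value far from the other three, for the 10 genes and the contractile shares of their families. Of 32 such groups 5 stood out, and chance gives about 1 in 20. In 3D, Myl9 was at 0.0704 FPKM for mouse 7 and at 0 for the other mice, and the Myl9 share of the regulatory light chains was accordingly 0.0156% there and 0 elsewhere. Myh11 was at 0 FPKM for mouse 1 in 3D and at 0.0190 to 0.0204 FPKM in the others, and its share of the myosin heavy chains was 0% there and 0.00586% to 0.00703% in the others. These 4 values rest on fewer than 2 estimated fragments. The Tagln share of the transgelins was 87.6% for mouse 3 in 2D and 83.1% to 83.8% in the other 2D libraries.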

How the results depend on the processing

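All 10 contractile genes kept their direction under every alternative. With mouse as a replicate block, 0 of the 10, 0 of the 57 related genes tested and 0 of all genes passed in limma after adjustment, lower or higher. At an unadjusted p below 0.05 this fit held 9 of the 10 and, of all genes, 2383 lower and 2833 higher. The blocked differences were -9.51 for Acta2, -6.60 for Actg2, -10.03 for Tagln, -7.11 for Cnn1, -3.06 for Cnn2, -7.90 for Myl9, -2.95 for Tpm1, -6.62 for Tpm2, -3.84 for Cald1 and -0.93 for Myh11. With mice 4 and 5 only, 1432 genes were lower and 1788 higher, against 3823 and 4000 with all libraries. Of the related genes 17 were lower and 3 higher, and Myh11 was at -0.93 (adjusted p 0.124). These alternatives use fewer mice or degrees of freedom, and both take the difference from mice 4 and 5. The actin share of Acta2 and Actg2 in 3D was 0.0428% with quantile normalized FPKM.

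Leaving out each library in turn kept 10 of 10 genes past the threshold, with 32 to 38 related genes lower and 5 to 7 higher. Among the 780 genes whose mean reached 100 FPKM, the median difference was -0.05 after quantile normalization and -0.57 as deposited, a downward shift as deposited that makes falls larger (Tpm1 -4.02) and rises smaller (Myl12b 1.73) for many abundant genes, though not for Actb (-3.16). Fragment counts limit Myl9, Myh11 and Actg2 in 3D, and Tpm2 for mouse 7 there. Cnn1 rested on 8.95 to 12.8 estimated fragments in 3D.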
